A study of Mus musculus with 25 samples.

Results

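Sirtuins are enzymes that use NAD to remove acetyl and other acyl groups from lysines of histones and other proteins, and the mouse has 7 of them, Sirt1 to Sirt7. All 7, the whole family, were taken by name from the 25158 genes listed for oocytes and the 34228 listed for embryos, and each was found in both lists by its Ensembl identifier. Their mRNA was measured by Smart-seq2, which amplifies full-length cDNA from very small samples, in 25 libraries of C57BL/6 mice that formed 6 groups. Oocytes had been cultured for 16 h until metaphase II (MII) in medium with PBS, a salt buffer (n = 4), or with a small molecule labelled VCD (n = 5). Embryos from a 6 h in vitro fertilization had been cultured with PBS or VCD to the 2-cell stage (n = 4 each) or to the morula, the ball of cells that precedes the blastocyst (n = 4 each). The labels name neither the full name nor the dose of VCD, nor how many oocytes, embryos or animals stand behind each library. The p-values below therefore reflect no more than the library-to-library spread, which may be technical.

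The family is divided by where its members work. Sirt1, Sirt6 and Sirt7 act mainly in the nucleus and nucleolus, Sirt2 mainly in the cytosol, and Sirt3, Sirt4 and Sirt5 in mitochondria. Because each reaction consumes NAD, the enzymes that make NAD and those that compete for it bear on how active sirtuins can be. An MII oocyte does not transcribe its genome and lives on stored maternal mRNA, which is degraded after fertilization while the embryo's own genome switches on, in the mouse chiefly at the 2-cell stage.

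The deposited unit was FPKM, a read count divided by gene length and library size. A comparison of levels between genes thus depends on the length taken for each. The annotated exon bases were 2398 for Sirt4, 2785 for Sirt6 and 5148 for Sirt7, and the transcripts present may be shorter. FPKM gives a share of each library and not an amount per embryo. With many cells in a morula, fewer cells carrying an mRNA and less mRNA in each cell cannot be told apart. The FPKM steps implied between 15075836 and 20998265 reads per library, so that 1 read in a transcript of 1 kb was worth 0.0476 to 0.0663 FPKM. The marker sets of the oocyte and of each embryo stage had their highest sums in the stage of that name. The 8 oocyte genes summed to 7736 to 10726 FPKM in MII libraries, 2912 to 3747 FPKM in 2-cell libraries and 29.2 to 60.2 FPKM in morulae. The 5 listed 2-cell genes of a set of 6 summed to 930.0 to 1381 FPKM in 2-cell libraries and at most 28.7 FPKM elsewhere, and the 7 morula genes to 199 to 327 FPKM in morulae and 15.6 to 28.5 FPKM in 2-cell libraries, where 4 of them reached 1 FPKM. In MII libraries the 5 morula genes that were listed summed to 39.0 to 98.9 FPKM, with Pou5f1 and Cdh1 among those at 1 FPKM or more. The 10 cumulus and granulosa cell genes listed in the oocyte table, of a set of 11, summed to 7.56 to 11.6 FPKM in MII libraries, with Cyp19a1 the only one at 1 FPKM or more there, and all 11 together gave at most 0.238 FPKM in morulae. Of 4 sperm genes, 1 was listed for oocytes and 3 for embryos, and those listed summed to at most 1.75 FPKM. Of 6 blood and stroma genes, 3 were listed for oocytes and 5 for embryos. Those listed summed to at most 23.2 FPKM, with Pecam1 and Hba-a1 the ones that reached 1 FPKM.

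**Figure D1:**
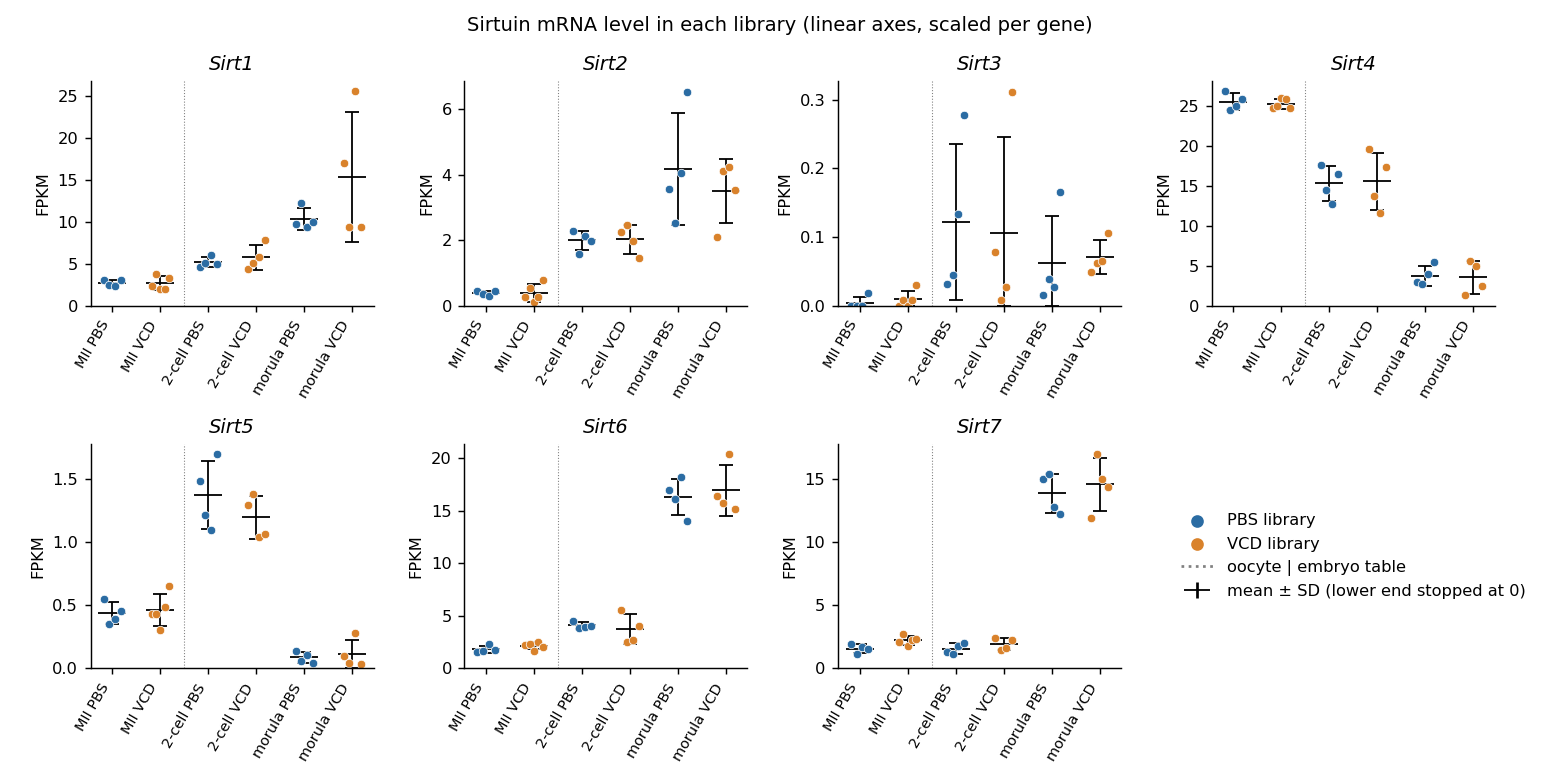
FPKM of each sirtuin (linear y axes, scaled per gene) in every library of the 6 groups. Points are libraries, blue with PBS and orange with VCD, bars are means ± SD, and the dotted line parts the oocyte table from the embryo table. Sirt4 is high in oocytes and low in morulae, Sirt6 and Sirt7 are high in morulae, and Sirt3 reaches at most 0.312 FPKM in the 25 libraries.

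The make-up of the family turned over between oocyte and morula. In MII oocytes with PBS, Sirt4 alone held 78.7% ± 1.1 (SD, n = 4) of the summed FPKM of the 7 genes, and Sirt1 followed with 8.31% ± 0.84. In 2-cell embryos with PBS, Sirt4 held 51.5% ± 4.2, Sirt1 17.6% ± 3.1 and Sirt6 13.8% ± 0.72. In morulae with PBS, Sirt6 led with 33.6% ± 3.6, before Sirt7 with 28.5% ± 3.2 and Sirt1 with 21.3% ± 2.5, and Sirt4 was down to 7.71% ± 2.6. Before division by length the order of these nuclear members was another, with 5389 reads for Sirt7, 4135 for Sirt1 and 3431 for Sirt6. A family led by a mitochondrial member thus gave way to one led by 3 nuclear members. The sum itself was 32.4 ± 1.6 FPKM in MII oocytes, 29.6 ± 2.4 FPKM in 2-cell embryos and 48.6 ± 0.34 FPKM in morulae, all with PBS. Oocytes and embryos came in separate tables that may have been scaled separately, so these levels stand side by side with no test between them.

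**Figure D2:**
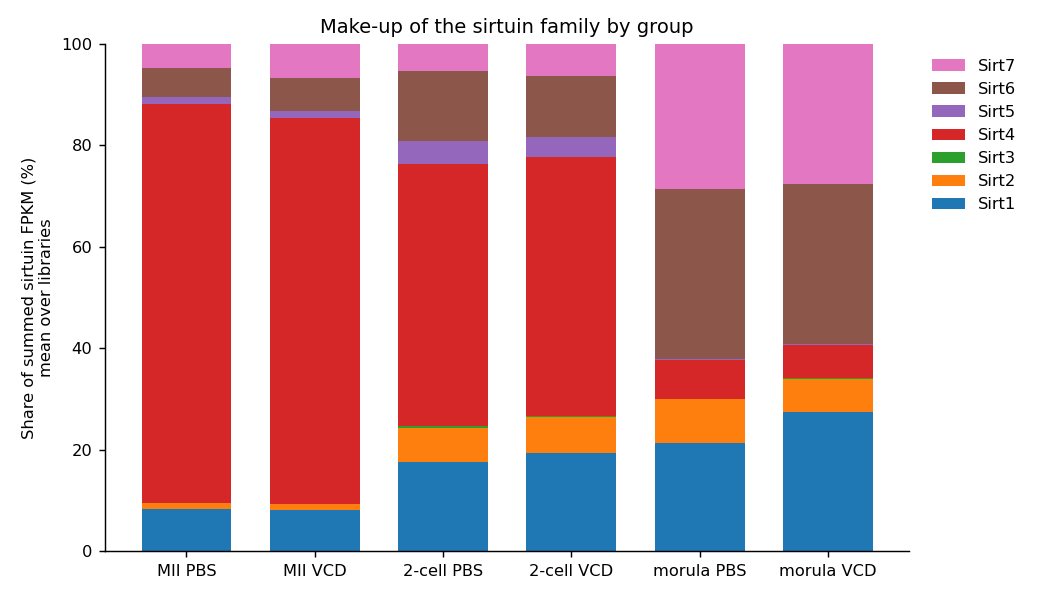
Share of the summed sirtuin FPKM held by each member (y axis, %, mean over the libraries of a group) in the 6 groups. The red Sirt4 segment shrinks from 78.7% in MII oocytes with PBS to 7.71% in morulae with PBS, and in the VCD groups of the same stages from 76.2% to 6.46%.

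Not all neighbours in the order of levels within a group were apart. In MII oocytes with PBS the order by mean was Sirt4, Sirt1, Sirt6, Sirt7, Sirt5, Sirt2 and Sirt3, and the ranges of Sirt6 and Sirt7, and those of Sirt5 and Sirt2, overlapped. In 2-cell embryos with PBS the order was Sirt4, Sirt1, Sirt6, Sirt2, Sirt7, Sirt5 and Sirt3, with overlap between Sirt2 and Sirt7 and between Sirt7 and Sirt5. In morulae with PBS it was Sirt6, Sirt7, Sirt1, Sirt2, Sirt4, Sirt5 and Sirt3, with overlap between Sirt6 and Sirt7, between Sirt2 and Sirt4, and between Sirt5 and Sirt3.

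Between the 2-cell stage and the morula, the 3 nuclear sirtuins and Sirt2 rose and the mitochondrial Sirt4 and Sirt5 fell, in PBS libraries and, tested apart, in VCD libraries. Genes were tested with limma on log2(FPKM + 1) where they reached 1 FPKM in at least 4 libraries, with Benjamini-Hochberg adjustment over all genes tested and a threshold of 0.05. Of the 7 members 6 passed that filter, Sirt5 solely through its 2-cell libraries, and Sirt3 did not. In PBS embryos 4 of these 6 were called higher in morulae, where 42.7% of 12517 tested genes were, and 2 were called lower, where 45% were, though 1 of these, Sirt5, had to differ to pass the filter. In VCD embryos the same counts were 4 and 2 of 6, against 41% and 43.9% of 12355 genes. Most tested genes thus changed between these stages, and that the sirtuins changed does not set them apart; their directions and sizes are what follows. The median log2 fold change of all tested genes was -0.08 in both comparisons. Scaling the libraries to the same median moved it by 0.17 in PBS embryos and 0.18 in VCD embryos, and quantile normalization by 0.19 and 0.18, and no sirtuin changed direction under either. On the scale as deposited, the fold changes of the members lay 0.96, 0.82, -1.73, -1.04, 1.84 and 2.62 from that median for Sirt1, Sirt2, Sirt4, Sirt5, Sirt6 and Sirt7 in PBS embryos.

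**Figure D3:**
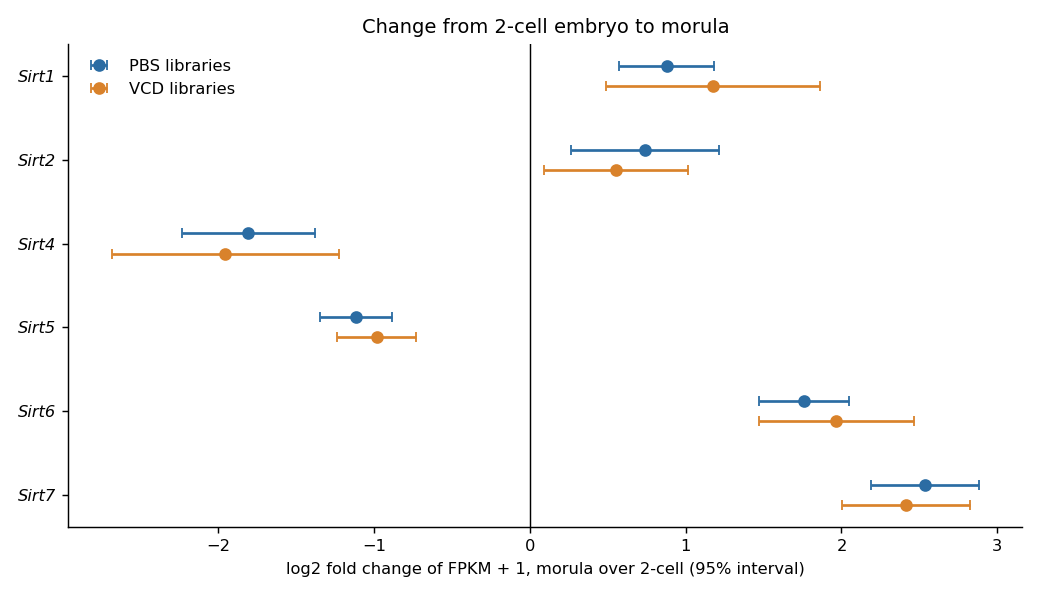
log2 fold change of FPKM + 1 from 2-cell embryo to morula (x axis) for the 6 sirtuins that passed the filter on low values, with 95% intervals, in PBS libraries (blue) and VCD libraries (orange). Sirt4 and Sirt5 lie left of 0 and the other 4 right of it in both sets, which share no library. Sirt5 passed the filter through its 2-cell libraries alone in both sets, so its side was fixed in advance.

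Sirt7, a nucleolar deacetylase known for its part in ribosomal RNA transcription, showed the largest rise of the family. Its 2-cell PBS libraries held 1.34, 1.13, 1.82 and 2.03 FPKM and its morula PBS libraries 15.03, 15.4, 12.8 and 12.3 FPKM. The groups did not overlap, and the means differed 8.79-fold. Its log2 fold change was 2.54 (SE 0.16, limma adjusted p = 5.56e-08) in PBS embryos and 2.41 (SE 0.19, adjusted p = 3.59e-07) in VCD embryos. With VCD the 2-cell libraries reached at most 2.42 FPKM, and the morulae stood at 11.9, 17.03, 15.003 and 14.4 FPKM. Its level in MII oocytes with PBS, 1.56 ± 0.36 FPKM (SD, n = 4), was close to that in 2-cell embryos with PBS, 1.58 ± 0.41 FPKM, and the ranges of those groups overlapped. The gene lies on the minus strand of chr11:120618372-120625240 (GRCm38, GENCODE M21), and 124 of its 5148 exon bases are shared with Mafg on the same strand, where reads cannot be told apart.

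The promoter of Sirt7 is shown because it and Sirt6, the members that rose most, both hold a core motif of the factor NRF1 (GCGCATGCG) in the 250 bases before a RefSeq start site, as do 1.45% of all 32851 such windows. All 7 members were found in the RefSeq table, in 9 windows, and 5 motifs were searched on both strands. The stretch below is chr11:120625015-120625085 on the minus strand (RefSeq promoter table, GRCm38), 5′ to 3′, and ends at the base before the start site, inside the longer GENCODE model of the gene. The capitals mark an ETS core (CCGGAAG, held by 6.91% of windows), 51 to 45 bases before the start, and the NRF1 core, 24 to 16 bases before it.
Sirt7 promoter: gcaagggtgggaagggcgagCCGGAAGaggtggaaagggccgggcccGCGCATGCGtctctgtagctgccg
In one of the 2 RefSeq windows of Sirt6 the NRF1 core stands in a 10-base palindrome that matches on both strands and is counted there as 2 overlapping matches, at chr10:81627691-81627718 on the minus strand, likewise inside a longer GENCODE model. The palindrome is in capitals.
Sirt6 site: atcaggaggGCGCATGCGCtctggaaag
A match of letters is a description and does not show that a factor binds.

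Sirt6, a chromatin-bound deacetylase of histone H3 known for its part in DNA repair and telomere upkeep, had the highest mean FPKM of the sirtuins in morulae, though not the most reads. Its 2-cell PBS libraries held 4.55, 3.83, 3.98 and 4.003 FPKM and its morula PBS libraries 16.9, 16.1, 18.2 and 14.04 FPKM. All morula values lay above all 2-cell values, and the means differed 3.99-fold. In limma the log2 fold change was 1.76 (SE 0.13, limma adjusted p = 2.31e-07) in PBS embryos and 1.97 (SE 0.22, adjusted p = 8.85e-06) in VCD embryos. The VCD morulae stood at 16.4, 15.7, 20.4 and 15.2 FPKM, and the highest VCD 2-cell library at 5.60 FPKM. MII oocytes with PBS held 1.82 ± 0.33 FPKM of Sirt6 (n = 4), so its level stood 2.25 times higher in 2-cell embryos, without a test. Sirt6 lies on the minus strand of chr10:81621785-81627797, and none of the 50-base words of its transcripts occurs in another annotated gene.

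Sirt1, the best studied member, deacetylates p53, FoxO factors and histones. Its levels were 4.65, 5.06, 6.02 and 4.95 FPKM in 2-cell PBS libraries and 9.76, 12.3, 9.42 and 9.95 FPKM in morula PBS libraries. The groups were apart by a wide margin, with a ratio of means of 2.00. Its log2 fold change was 0.88 (SE 0.14, limma adjusted p = 0.000112) in PBS embryos and 1.18 (SE 0.31, adjusted p = 0.00435) in VCD embryos, where replicates 1 and 3 of the morulae were far above replicates 2 and 4. In MII oocytes with PBS the level was 2.70 ± 0.37 FPKM (n = 4), so Sirt1 had a higher mean at each step from oocyte to 2-cell embryo to morula. The gene lies on the minus strand of chr10:63319005-63381704 and shares 65 of its 5331 exon bases with the antisense gene Gm16145. Smart-seq2 does not keep the strand of the RNA, so reads there cannot be told apart.

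The Sirt1 promoter is shown for its base composition, which no other member matched: 79.2% of its 250 upstream bases are G or C and it holds 39 CpG dinucleotides, where the other 8 windows of the family hold 12 to 21 and the median of all windows is 6. It has 6 GC boxes (GGGCGG, at least 1 in 32.7% of windows) and 2 palindromic E-boxes (CACGTG, at least 1 in 6.02% of windows), which are in capitals in chr10:63339053-63339170, minus strand, 135 to 18 bases before the RefSeq start site and inside the longer GENCODE model.
Sirt1 promoter: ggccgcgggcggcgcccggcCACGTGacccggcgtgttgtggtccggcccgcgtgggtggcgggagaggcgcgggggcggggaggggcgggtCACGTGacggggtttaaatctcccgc

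Sirt2, the cytosolic member that deacetylates tubulin, rose least on the log2(FPKM + 1) scale, and its rise was the least secure. Its 2-cell PBS libraries held 2.28, 1.59, 2.13 and 1.99 FPKM and its morula PBS libraries 3.58, 2.54, 4.05 and 6.54 FPKM. The groups did not overlap, though replicate 4 of the morulae stood well above the other 3. With PBS its log2 fold change was 0.74 (SE 0.21, limma adjusted p = 0.00735). In VCD embryos the levels were 2.25, 2.46, 1.97 and 1.45 FPKM at the 2-cell stage and 2.09, 4.10, 4.24 and 3.55 FPKM in morulae. There the groups overlapped through morula replicate 1. The log2 fold change was 0.55 (SE 0.21, adjusted p = 0.0287), and the call was lost in 8 of 14 alternative analyses, with adjusted p of up to 0.0950 (without 2-cell VCD replicate 4). The others were no filter on low values, limma-voom, and leaving out 2-cell VCD replicate 1 or 3 or morula VCD replicate 2, 3 or 4. In MII oocytes Sirt2 was listed at 0.388 ± 0.065 FPKM with PBS (n = 4), which was 26 to 42 reads per library. The gene lies on the plus strand of chr7:28766735-28788661.

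Sirt4, a mitochondrial lipoamidase and ADP-ribosyltransferase known to restrain glutamate and pyruvate dehydrogenase, was the sirtuin of the oocyte. MII oocytes held 26.8, 24.5, 24.9 and 25.8 FPKM with PBS and 24.7, 24.96, 25.99, 25.9 and 24.7 FPKM with VCD, a level above that of 93.5% of the genes listed with PBS. The highest library exceeded the lowest 1.09-fold with PBS and 1.05-fold with VCD, the tightest spread of any sirtuin. The level was 17.6, 14.5, 12.7 and 16.4 FPKM in 2-cell PBS libraries and 2.92, 2.71, 3.93 and 5.41 FPKM in morula PBS libraries. Each stage lay wholly below the one before it. From 2-cell embryo to morula the mean was 4.09-fold lower, with a log2 fold change of -1.81 (SE 0.19, limma adjusted p = 5.18e-06) in PBS embryos and -1.95 (SE 0.33, adjusted p = 0.000195) in VCD embryos. The VCD 2-cell libraries ranged from 11.6 to 19.6 FPKM and the VCD morulae from 1.28 to 5.55 FPKM. The summed oocyte markers given above fell over the same stages. Whether the decline of Sirt4 followed that of maternal mRNA was not tested. Sirt4 lies on the minus strand of chr5:115478010-115484725, and none of its 50-base words occurs in another annotated gene.

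Sirt4 and Sirt2 share a promoter motif, the site of the factor ZNF143 (ACTACANNTCCC, on either strand), which 1.67% of all windows hold, although Sirt4 fell and Sirt2 rose. Sirt4 has 2 such sites on opposite strands, at chr5:115484413-115484442 and chr5:115484374-115484403 of the minus strand, and Sirt2 has 1, in chr7:28766661-28766712 of the plus strand. Both Sirt4 sites lie inside its longer GENCODE model. The sites are in capitals.
Sirt4 first site: taggattctGGGACTTGTAGTtttcttcca
Sirt4 second site: gcttcgcggACTACATTTCCCaagatgcac
Sirt2 promoter: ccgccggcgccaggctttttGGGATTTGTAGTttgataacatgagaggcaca
Sirt3 and Sirt5 hold none of the NRF1, ZNF143 and E-box motifs in the windows searched, which says only that these letters are absent there.

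Sirt5, the mitochondrial enzyme that removes succinyl, malonyl and glutaryl groups, had its highest mean at the 2-cell stage. Its levels there were 1.48, 1.21, 1.09 and 1.69 FPKM with PBS. In morulae with PBS they were 0.141, 0.0571, 0.104 and 0.0449 FPKM, from 5 to 18 reads per library. No morula library came near a 2-cell library, and the mean was 15.8-fold lower. Having entered through the stage where it is high, Sirt5 had to differ in the filtered test, so its calls there support nothing. With no filter on low values its log2 fold change was -1.12 (limma adjusted p = 5.33e-05) in PBS embryos and -0.98 (adjusted p = 0.000262) in VCD embryos. The VCD morulae stood at 0.0951, 0.0406, 0.279 and 0.0313 FPKM, below the lowest VCD 2-cell library, at 1.04 FPKM. The size of the change depends on the pseudocount, since the added 1 FPKM exceeds the morula level: with 0.1 in its place it was -2.99 and -2.74. With quantile normalization it was -0.49 and -0.33 (limma adjusted p = 0.00680 and 0.0392). In MII oocytes with PBS, Sirt5 was listed at 0.437 ± 0.085 FPKM (n = 4), between its 2-cell and morula levels. The gene lies on the plus strand of chr13:43365496-43395203, and 14.2% of its 50-base words occur in other genes, so a part of its reads may have been assigned elsewhere or come from elsewhere.

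Sirt3, the main mitochondrial protein deacetylase, was close to the limit of detection throughout. In MII oocytes it had 0 reads in 5 of 9 libraries, which allows a level of up to 0.0250 to 0.0304 FPKM at their depths (3 reads), and 1 to 3 reads in the other 4. The 2-cell libraries held 3 to 28 reads with PBS and 1 to 33 with VCD, and the morulae 2 to 18 and 5 to 10. In FPKM the 2-cell PBS libraries were at 0.0320, 0.0449, 0.134 and 0.278 and the morula PBS libraries at 0.0159, 0.0389, 0.0266 and 0.165. These groups overlapped, and a two-sided exact permutation test of log2(FPKM + 1) gave p = 0.429 in PBS embryos and p = 0.914 in VCD embryos, where 0.0286 is the smallest value possible. The gene lies on the minus strand of chr7:140863666-140882309, and 418 and 342 of its 5973 exon bases are shared with Ric8a and Psmd13 on the opposite strand, so even these few reads may not all be its own.

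No sirtuin passed the test of VCD against PBS once p-values were adjusted over all genes. In MII oocytes 4 members could be tested (Sirt1, Sirt4, Sirt6 and Sirt7), in 2-cell embryos 6 (all but Sirt3), and in morulae 5 (all but Sirt3 and Sirt5). In limma 0 of these passed. Of the 15 tests 1, Sirt7 in MII oocytes, had an unadjusted limma p below 0.05. Over all genes tested, 245 of 8715 in MII oocytes, 391 of 11369 in 2-cell embryos and 311 of 9959 in morulae had such a p. On recovered reads, limma-voom called 0 sirtuins as well. The background was as low: 0.0115% of 8715 tested genes were called in MII oocytes, 0% of 11369 in 2-cell embryos and 0.01% of 9959 in morulae. The VCD comparisons in 2-cell embryos and in morulae use the same PBS and VCD libraries as the comparisons of stages. The one in MII oocytes shares no library with them.

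**Figure D4:**
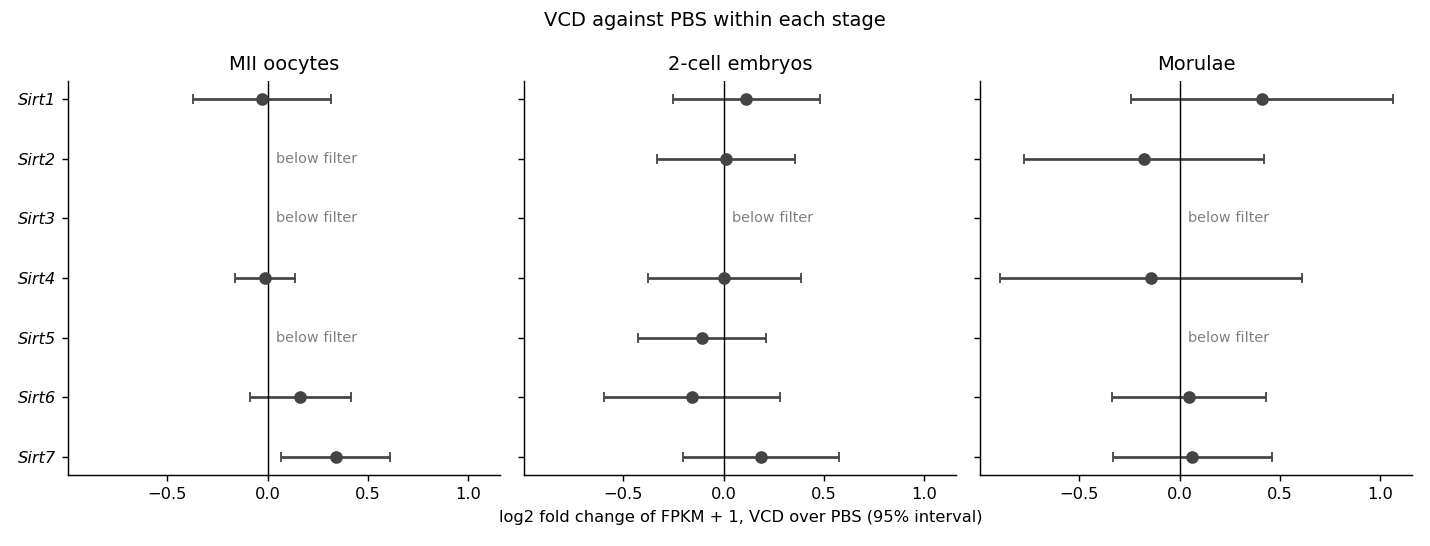
log2 fold change of FPKM + 1 for VCD over PBS (x axis) with its 95% interval, for each sirtuin in MII oocytes, 2-cell embryos and morulae. Members marked as below the filter were not tested, and the interval for Sirt7 in MII oocytes, 0.07 to 0.61, is the one that does not include 0.

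In MII oocytes Sirt7 came nearest to a difference. Its levels were 1.97, 1.12, 1.67 and 1.51 FPKM with PBS and 2.09, 2.71, 1.76, 2.29 and 2.34 FPKM with VCD. The lowest VCD library lay within the PBS range and the other 4 above it. The log2 fold change was 0.34 (95% interval 0.07 to 0.61, unadjusted p = 0.0185), and the limma adjusted p over all genes was 0.999. Sirt6 had 1.55, 1.69, 2.29 and 1.75 FPKM with PBS and 2.26, 2.31, 1.69, 2.54 and 1.99 FPKM with VCD. It differed by 0.16 (-0.09 to 0.42), with 2 of 5 VCD libraries above all PBS libraries. For Sirt1, whose PBS libraries lay between 2.31 and 3.03 FPKM and VCD libraries between 1.95 and 3.81 FPKM, the estimate was -0.03 (-0.37 to 0.32). Among the sirtuins Sirt4 gave the narrowest interval, -0.16 to 0.14 around -0.01. Among the members below the filter, two-sided exact permutation tests gave p = 0.889 for Sirt2, 0.714 for Sirt3 and 0.794 for Sirt5. So few libraries limit how small such a p can be. Sirt2 lay between 0.306 and 0.446 FPKM with PBS and between 0.108 and 0.776 FPKM with VCD, where the lowest library had 9 reads. Sirt5 lay between 0.355 and 0.549 FPKM with PBS and between 0.308 and 0.651 FPKM with VCD. Both VCD groups thus reached past the PBS range on each side.

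In 2-cell embryos the estimates were between -0.16 and 0.19. Sirt7 had the highest, 0.19 (95% interval -0.20 to 0.57), with VCD libraries at 2.42, 1.46, 1.59 and 2.28 FPKM. Sirt6 had the lowest, -0.16 (-0.60 to 0.28), with VCD libraries at 5.60, 2.54, 2.67 and 4.03 FPKM, a wider spread than with PBS. Sirt1 was at 4.43, 5.04, 5.78 and 7.80 FPKM with VCD, where the highest library lay above all PBS libraries and the lowest below all of them. The estimates of Sirt1 (0.11), Sirt2 (0.01), Sirt4 (0.00) and Sirt5 (-0.11) lay between, and the limma adjusted p was 0.999 for all 6. For Sirt3 the exact permutation p was 0.8.

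In morulae the widest difference was that of Sirt1, and it rested on part of the libraries. Sirt1 was at 9.76, 12.3, 9.42 and 9.95 FPKM with PBS and at 16.9, 9.32, 25.6 and 9.36 FPKM with VCD. Replicates 1 and 3 with VCD were above all PBS libraries, and replicates 2 and 4 below all of them. The log2 fold change was 0.41 (95% interval -0.24 to 1.07, unadjusted p = 0.193, limma adjusted p = 0.99997), and without one or another library it ranged from 0.14 to 0.59. Sirt4 with VCD was likewise spread, at 1.28, 5.55, 5.01 and 2.44 FPKM, with an estimate of -0.14 (-0.90 to 0.61). The other tested members gave -0.18 (-0.78 to 0.42) for Sirt2, 0.05 (-0.34 to 0.43) for Sirt6 and 0.06 (-0.33 to 0.46) for Sirt7. The exact permutation p was 0.8 for Sirt3 and 0.886 for Sirt5. In the interaction test of whether the VCD effect in morulae differed from that in 2-cell embryos, 0 of 6 tested sirtuins passed, nor had any an unadjusted p below 0.05, where 0% of 14144 genes passed. The estimates lay between -0.19 for Sirt2 and 0.30 for Sirt1.

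The genes that supply NAD, compete for it, or are acted on by sirtuins were read from 3 lists. Of 27 genes of NAD metabolism, 10 were tested in PBS embryos, and 5 rose and 4 fell from 2-cell embryo to morula, near the background of 42.7% and 45% of all tested genes. Of the 10, Afmid, Sarm1 and Nadsyn1 reached 1 FPKM in 1 stage alone and thus had to differ. The median log2 fold change of the 10 was 0.76, beside -0.08 over all genes tested. Over the 9 tested in VCD embryos the median was -0.16. Of these 9, 4 rose and 4 fell, beside 41% and 43.9% of all tested genes, and 2 reached 1 FPKM in 1 stage alone. Parp1, the DNA-damage sensor that consumes NAD, rose from 1.76 ± 0.74 to 29.8 ± 4.5 FPKM, a log2 fold change of 3.51 (SE 0.20, limma adjusted p = 3.39e-08). Its relative Parp2 rose from 7.88 ± 0.63 to 40.6 ± 9.4 FPKM. Afmid, the formamidase of the route from tryptophan to NAD, was at 0.457 ± 0.16 FPKM in 2-cell embryos and 5.18 ± 1.9 FPKM in morulae. The remaining calls, named after their values were seen, were rises of Nampt, the rate-limiting enzyme of NAD salvage (1.27), and of the NADase Sarm1 (1.30), and falls of Nmnat1 (-1.39), which joins the final NAD precursor to adenylate, of the NAD synthetase Nadsyn1 (-1.44), of the riboside kinase Nmrk1 (-0.76) and of the mitochondrial NAD carrier Slc25a51 (-0.58). Nampt thus rose while Nmnat1 fell. The fall of Nadsyn1, fixed in advance by the filter, adds nothing to that contrast.

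Of 35 regulators and substrates of sirtuins, 28 were tested in PBS embryos, and 18 rose and 7 fell, with a median of 0.73, beside 42.7% and 45% of all tested genes and a median of -0.08. Idh2, Suv39h1 and Cps1 reached 1 FPKM in 1 stage alone and thus had to differ. In VCD embryos 17 of 28 rose and 7 fell, beside 41% and 43.9% of all tested genes, with a median of 0.90. Of these 28, 4 reached 1 FPKM in 1 stage alone and thus had to differ. On the log2(FPKM + 1) scale, the 3 that rose most encode mitochondrial proteins. That sirtuins deacylate them follows from the choice of the list and is no result. Acadl, a dehydrogenase of fatty acid oxidation, rose from 2.95 ± 0.48 to 320 ± 17 FPKM (log2 fold change 6.35, SE 0.13, limma adjusted p = 4.83e-11). Ndufa9, a complex I subunit, rose from 3.96 ± 0.66 to 162 ± 13 FPKM. By ratio of means, Idh2 (107-fold) also stood above Ndufa9 (40.9-fold), and Ubtf (27.6-fold) above Pdha1 (21.1-fold). Pdha1, the catalytic subunit of pyruvate dehydrogenase, rose from 5.48 ± 0.63 to 115 ± 23 FPKM. The glutamate dehydrogenase Glud1 did not pass in PBS embryos (0.30, limma adjusted p = 0.0771) and rose in VCD embryos (0.67, limma adjusted p = 0.00624). Sirt4, which acts on both enzymes, fell, and whether these changes are linked was not tested. The 7 that fell, named after their values were seen, were Hif1a (-3.34), Elk4 (-2.50), Cps1 (-2.35), Foxo1 (-2.26), Ogg1 (-1.67), Fzr1 (-1.26) and Rela (-0.77). Cps1, the urea cycle enzyme that Sirt5 desuccinylates, went from 4.24 to 0.0150 FPKM. Cps1 and Sirt5 both passed the filter through the 2-cell stage alone, so their shared direction was fixed in advance and supports nothing.

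The zinc-dependent histone deacetylases, which share the reaction of sirtuins but use no NAD, were mixed. Of 11 genes, 6 were tested in PBS embryos, and 2 rose and 2 fell, beside 42.7% and 45% of all tested genes. Hdac1 rose from 12.3 ± 1.4 to 152 ± 20 FPKM (log2 fold change 3.52, SE 0.14, limma adjusted p = 1.75e-09), and thus in morulae exceeded the summed FPKM of all 7 sirtuins. The other calls, named after their values were seen, were Hdac3 (1.47), Hdac8 (-1.07) and Hdac9 (-1.32), each of which reached 1 FPKM in 1 stage alone and thus had to differ. Hdac2 (0.39) and Hdac6 (0.65) did not pass. In VCD embryos 3 of 6 tested rose and 2 fell, beside 41% and 43.9% of all tested genes. Of these 6, 3 reached 1 FPKM in 1 stage alone and thus had to differ. Leaving out any 1 of the 2-cell PBS libraries left 2 calls in the place of 4, where only 4 members in place of 6 still met the filter.

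**Figure D5:**
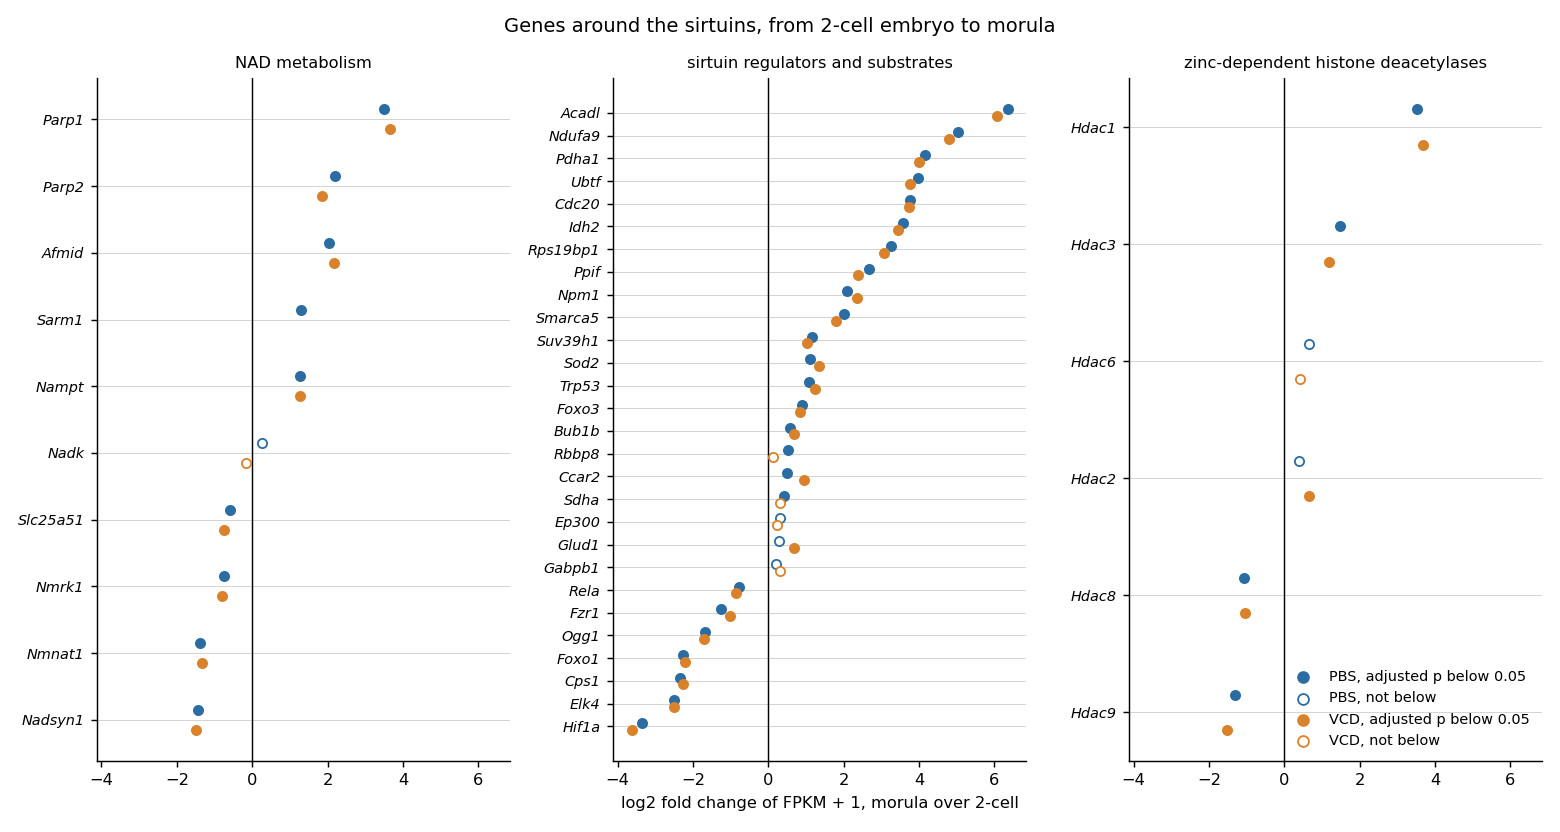
log2 fold change of FPKM + 1 from 2-cell embryo to morula (x axis) for the tested members of 3 gene lists, blue in PBS libraries and orange in VCD libraries, filled where the limma adjusted p was below 0.05. Acadl lies farthest right at 6.35 in PBS libraries and Hif1a farthest left, at -3.34 in PBS libraries and -3.62 in VCD libraries.

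The 3 lists gave no call for VCD either. In MII oocytes 0 of 32 tested list genes passed, in 2-cell embryos 0 of 39 and in morulae 0 of 39. At an unadjusted limma p below 0.05 there were 1, 1 and 0 list genes. Over all genes tested there were 245 of 8715, 391 of 11369 and 311 of 9959. The member of smallest unadjusted p in each list was Hdac8 (log2 fold change 0.24), Glud1 (0.21) and Nadsyn1 (0.12) in MII oocytes. In 2-cell embryos it was Hdac6 (0.39), Hif1a (0.19) and Nadk (0.19). In morulae it was Acadl (-0.35), Hdac1 (0.24) and Parp2 (-0.25). Unadjusted, Hdac8 in MII oocytes and Hdac6 in 2-cell embryos were below 0.05, and the limma adjusted p of all 9 was 0.999 or above.

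Some genes tracked single sirtuins closely over the 16 embryo libraries. As a description, the 2 genes of highest Pearson's r on log2(FPKM + 1) were taken among about 6637 genes with a mean of 5 FPKM or more. The 16 points fall into a 2-cell and a morula cluster and share depth and scaling, so a high r mainly shows a like step between stages. For Sirt7 these were Tomm70a (r = 0.994), a receptor of mitochondrial protein import, and Rrp1 (r = 0.994), a ribosomal RNA processing factor, with r of 0.73 and 0.82 within the 2-cell libraries (n = 8) and 0.68 and 0.40 within the morula libraries (n = 8). For Sirt6 they were Mrpl4 (r = 0.99) and Cops5 (r = 0.9896), with 0.83 and 0.81 within 2-cell libraries and 0.75 and 0.71 within morulae. For Sirt4 they were Sdcbp (r = 0.978) and Aplf (r = 0.978), with 0.60 and -0.06 within 2-cell libraries and 0.91 and 0.94 within morulae. Sirt1 was matched by Gm4204 (r = 0.955) and Mknk2 (r = 0.953), with 0.45 and 0.67 within 2-cell libraries and 0.96 and 0.91 within morulae. Sirt2 was matched by Ap2b1 (r = 0.917) and Qtrt2 (r = 0.903), with 0.69 and 0.60 within 2-cell libraries and 0.97 and 0.91 within morulae. All these genes were picked on these same libraries, so the r within a stage is no separate check. Sirt3 and Sirt5 had a mean below 1 FPKM over these libraries and were not matched.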

How the data were processed

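Smart-seq2 libraries of 9 MII oocyte and 16 embryo samples were used. The authors deposited FPKM in 2 tables. The submitters' processing notes list Bowtie2 2.2.3, TopHat2 2.0.12 and the chicken build galGal4, yet all identifiers are mouse Ensembl identifiers. For the counting tool and annotation, the sources used here give nothing. FPKM times GENCODE M21 exon length gave whole reads (within 0.01) for 90.6% to 93.4% of values under 200 reads, which served for depth and 1 alternative. Amplified reads are not independent molecules, so limits from reads cover counting error only.

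Tests used limma 3.58.1 in R 4.3.3 (limma-trend on log2(FPKM + 1), 1 FPKM in at least 4 libraries, equal weights), after tests on simulated data. The scale understates changes of low genes. Fold changes are log2 differences of group means. Members below the filter had an exact permutation test. From each list, the 3 called genes of largest change with a mean of 5 FPKM or more, and for VCD the gene of smallest p, were named. The members and lists were chosen with earlier results of these data known. Alternatives were a pseudocount of 0.1, no filter, a 5 FPKM filter, 2 scalings, array weights, limma-voom, a replicate block and leaving out libraries. Replicate numbers were not taken as pairs in the main tests. Promoter windows come from RefSeq.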

Additional observations from a re-analysis of the deposited data

Results flagged for a closer look

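Of 42 combinations of a sirtuin and a group that were checked for a sample far from the others, 3 stood out. All of them were the highest Sirt3 value of a group. The test is set so that chance alone gives about 1 in 20, but that rate does not apply to counts of so few reads. In MII oocytes with PBS, replicate 4 had 0.0179 FPKM of Sirt3 (2 reads) where the other 3 libraries had 0, so that any read at all would have been flagged. In MII oocytes with VCD, replicate 5 had 0.0307 FPKM (3 reads). In morulae with PBS, replicate 4 had 0.165 FPKM (18 reads) where the others had 2 to 4 reads. No other sirtuin had such a sample, and no difference of VCD effects between 2-cell embryos and morulae passed its test.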

How the results depend on the processing

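Over the 545 values that alternatives gave for 33 tested sirtuin log2 fold changes, no direction changed between stages, no call was gained for VCD, and 8 calls were lost, all of them the rise of Sirt2 in VCD embryos. Its adjusted p was 0.0551 with no filter, 0.0530 with limma-voom, 0.0515, 0.0689 and 0.0950 without 2-cell VCD replicate 1, 3 or 4, and 0.0662, 0.0736 and 0.0565 without morula VCD replicate 2, 3 or 4. The log2 fold change of Sirt5 ranged from -4.05 (limma-voom) to -0.49 (quantile normalization) with PBS and from -3.88 to -0.33 with VCD, and without any 1 of the 2-cell libraries Sirt5 no longer met the filter. Estimates for VCD that changed sign, none past the threshold, were Sirt1 in MII oocytes with array weights (0.033), and in 2-cell embryos Sirt2 with the same median (-0.0026) and Sirt4 with the same median (-0.0088), array weights (-0.085) and limma-voom (-0.0068). Leaving out 1 library at a time gave -0.13 to 0.044 for Sirt1 and -0.032 to 0.010 for Sirt4 in MII oocytes, -0.021 to 0.21 for Sirt1, -0.058 to 0.11 for Sirt2 and -0.11 to 0.13 for Sirt4 in 2-cell embryos, and in morulae -0.34 to 0.022 for Sirt2, -0.36 to 0.15 for Sirt4, -0.042 to 0.099 for Sirt6 and -0.0089 to 0.15 for Sirt7. For the interaction these ranges were -0.35 to 0.011 for Sirt2 and -0.36 to 0.14 for Sirt4.

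With a 5 FPKM filter, which tests fewer genes, 6682 in place of 10978 genes were called between stages with PBS and 6444 in place of 10479 with VCD, NAD genes called with PBS went from 9 to 4, and histone deacetylases from 4 to 1 with PBS and from 5 to 2 with VCD. With no filter 14 NAD genes were called in place of 9 and 8. Histone deacetylases called went to 2 without any 1 of the 2-cell PBS libraries, to 2 without 2-cell VCD replicate 1 or 3, and to 3 without 2-cell VCD replicate 2 or 4 or morula VCD replicate 3. Fewer of them met the filter there, with 4 in place of 6 without a 2-cell library and 5 without morula VCD replicate 3. Over all genes the VCD comparisons and the interaction gave 0 to 2 calls under all settings.

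The r of deviations of same-numbered libraries was -0.33 to -0.11 in MII oocytes, -0.15 to 0.16 in 2-cell embryos and -0.05 to 0.38 in morulae. Of 4 PBS libraries, 0, 1 and 2 were closest to their own number. Same-numbered libraries thus did not deviate together in MII oocytes. In morulae r was 0.33 and 0.38 for numbers 1 and 4 and -0.05 and 0.05 for numbers 2 and 3, which leaves a pairing there unsettled. With the number as a replicate block, 0 sirtuins were called in any VCD comparison or the interaction, and 0, 1 and 1 genes of all tested in the 3 stages. No block was run between stages, whose libraries are numbered differently. A comparison of the sirtuin proteins was not run. Depth limits Sirt3 in all groups and Sirt5 in morulae.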

Other observations

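Nnt, the mitochondrial transhydrogenase that links NAD and NADP and a member of the NAD metabolism list, was close to 0 in all groups, with 0 to 0.0750 FPKM in MII oocytes, 0 to 0.00905 FPKM in 2-cell embryos and 0 to 0.0650 FPKM in morulae. The labels give the strain as C57BL/6 with no substrain, and the cause of the low level was not tested. This gene was singled out after its values were seen.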
